A study of Mus musculus with 6 samples.

Results

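Sodium-proton exchangers are membrane proteins that carry sodium one way and protons the other. Exchangers at the surface of kidney tubule cells help to take up sodium, secrete acid and hold the pH of the cell, and their relatives in the Golgi and in endosomes set the pH inside those compartments. The 7 exchanger genes described here are Slc9a2, Slc9a3, Slc9a4, Slc9a7, Slc9a8, Slc9a9 and Slc9b2. They are 7 of 20887 genes named on the array, of which 14752 gave enough signal to be tested. The genes were chosen by symbol with the difference between knockout and wild type already known, so their values are a description and carry no test. The array held 9 probes for them, and all 9 are reported.

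The samples were sorted kidney cells of C57BL/6 mice at postnatal day 1, labelled as collecting duct cells. In 3 samples (KO) the pups carried Hoxb7-driven Cre, floxed Bdkrb2 on both chromosomes and the R26R tdTomato reporter. In the other 3 samples (WT) they carried the same Cre and reporter with unfloxed Bdkrb2, the gene of the bradykinin B2 receptor. Hoxb7-driven Cre acts in the ureteric bud lineage, and cells carrying both GFP and dsRED signal were sorted. All samples are listed with food of 5% sodium and titled as salt stressed, so the comparison is between genotypes under salt. The growth protocol names floxed parents, which cannot give pups with unfloxed Bdkrb2, and the labels do not describe the parents of the WT pups. Litter and genotype cannot be told apart from these labels. The labels do not give the number of animals in a sample, and p-values below measure the spread between samples, which may in part be technical.

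Each array had 2 colours. The sample was labelled with Cy5, and RNA of WT replicate 1 (the WT1 reference) was labelled with Cy3 on every array, so the array of WT replicate 1 compared that RNA with itself. A log2 ratio of 0 therefore stands for a signal equal to that of the WT1 reference, but only roughly. On the array of that RNA against itself, the first of the scales below gave 0.00 to 0.18 at the exchanger probes. It gave 0.43 for Rack1 and -0.35 for Scamp2, genes of a related list below. Ratios are given on 2 scales. The first uses medians of spot and background intensity corrected by normexp with an offset of 50 and loess, which draws the ratios of dim probes towards 0. The second is the scanner program's own log ratio, based on processed signals and called the Agilent ratio. It lets many dim probes spread widely. It was also exactly 0 at 20.4% to 27.7% of spots per array, control spots left out. All 6 arrays lay on 1 slide, the KO arrays and WT replicate 1 in row 1 and WT replicates 2 and 3 in row 2. Between 49.8% and 57.5% of spots per array were well above background in Cy5, and no spot was saturated. Bdkrb2 could not check the genotype labels, since its single probe was well above background on 0 of 6 arrays in Cy5 and on 0 of 6 in Cy3. In bulk samples such as these, fewer cells of a type and less RNA per cell cannot be told apart.

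Many cell type markers also differed between the groups, and their part in the results below was not tested. Of the 7 tested principal cell markers 7 fell in KO (median log2 difference -1.91; list median per array -0.09 to -0.08 in WT and -2.01 to -1.81 in KO). Of 8 intercalated cell markers 8 fell (median -2.46; -0.59 to 0.27 in WT, -2.70 to -2.35 in KO), and so did 8 of 8 markers of the thick limb and distal tubule (median -2.41; -0.69 to 0.06 in WT, -2.93 to -2.56 in KO). Of 8 nephron progenitor markers 7 rose (median 2.31; -0.01 to 0.23 in WT, 1.59 to 2.47 in KO), as did 7 of 8 stroma markers (median 2.14; -0.90 to 0.08 in WT, 1.30 to 1.72 in KO). Of 8 proximal tubule markers 2 fell (median -0.35; -1.03 to 0.10 in WT, -0.73 to -0.53 in KO), of 8 endothelial markers 8 fell (median -1.06; 0.04 to 0.10 in WT, -0.91 to -0.86 in KO), and of 7 leukocyte markers 5 rose and 1 fell (median 0.99; -0.68 to -0.01 in WT, 0.17 to 0.97 in KO). The count of proximal tubule markers that fell was 0 without WT replicate 3, 5 without WT replicate 2 (median -0.64), and 1 without WT replicate 1 (median -0.10, with 1 that rose), KO replicate 2 or KO replicate 3. When row of the slide entered the fit as a block, 0 leukocyte markers were called in either direction, 6 endothelial, 6 principal cell and 1 proximal tubule markers fell (proximal tubule median -0.84), and 6 stroma markers rose (median 1.30). With each array centred on its median 5 endothelial markers fell and 6 leukocyte markers rose. The collecting duct water channel Aqp2 and the first marker of each other list were well above background on all 6 arrays, so none of these defining markers was at 0. Ptprc, the first leukocyte marker, was the 1 of its list that fell (log2 difference -0.43). Over all 14752 genes 35.4% were called changed (limma, adjusted p under 0.05), 15.4% higher and 20.0% lower in KO, with a median difference of -0.02.

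Promoter sequence was at hand for 5 of the 7 exchanger genes, and 3 of these entries held bases before the start of the gene record. The windows of Slc9b2 and Slc9a8 are shown because their main probes were well above background on every array. Slc9b2 is the member whose KO ratios all lay above the WT ratios, and Slc9a8 is the bright member whose ratio overlapped between the groups. The sequences come from RefSeq on build GRCm38.p6 and run 5′ to 3′ on the gene's strand. Capitals mark the GC box letters GGGCGG on either strand (CCGCCC on the strand shown), the core of sites that Sp1-type factors are known to bind.
Slc9b2, chr3:135307450-135307650, plus strand: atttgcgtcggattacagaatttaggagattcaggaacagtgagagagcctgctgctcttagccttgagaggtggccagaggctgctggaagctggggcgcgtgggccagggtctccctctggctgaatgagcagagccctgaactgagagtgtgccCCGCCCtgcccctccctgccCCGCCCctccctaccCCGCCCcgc
Slc9a8, chr2:167421460-167421598, plus strand: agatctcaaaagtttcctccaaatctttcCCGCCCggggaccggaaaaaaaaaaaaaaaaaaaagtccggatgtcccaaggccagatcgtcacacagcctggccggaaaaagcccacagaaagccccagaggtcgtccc
The Slc9b2 window of 201 bases was 63.7% G or C and held 3 matches to GGGCGG, all near its downstream end. Among 27025 promoter entries 24.7% held at least a single match in their first 201 bases. The shares below likewise use the first bases of each entry. Those bases were not cut at the gene start, so their distance from it can differ. The Slc9a8 window of 139 bases was 51.1% G or C and held 1 match, against 14.9% of promoters at its length. Neither window held the letters CCAAT (29.0% and 18.7% of promoters at those lengths) or TATAAA (9.5% and 7.1%), searched on both strands. These are matches of letters in a window, and no binding was measured here.

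Across the 7 genes, the clear differences were a lower signal of Slc9a2 and a higher signal of Slc9b2 in KO. Of the 9 probes, 3 were well above background in Cy5 on all 6 arrays (the Slc9a2 probe, the Slc9b2 probe and the brighter Slc9a8 probe), and 3 were so on none. The KO and WT ratios did not overlap for 5 probes, with 4 lower and 1 higher in KO, and overlapped for 4. Among all tested genes the groups did not overlap for 52.2%, and since the genes were chosen with this contrast known, nothing is read from the members' count. With the brighter probe standing for each gene, the median difference over the 7 genes was -0.28, which is the value of Slc9a3, a gene with no array well above background. The median over all tested genes was -0.02, but 3 of the 7 genes did not pass the filter for testing, so the medians are not of like genes. On the Agilent scale the median of the 7 was -1.94, which is the value of Slc9a7.

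**Figure D1:**
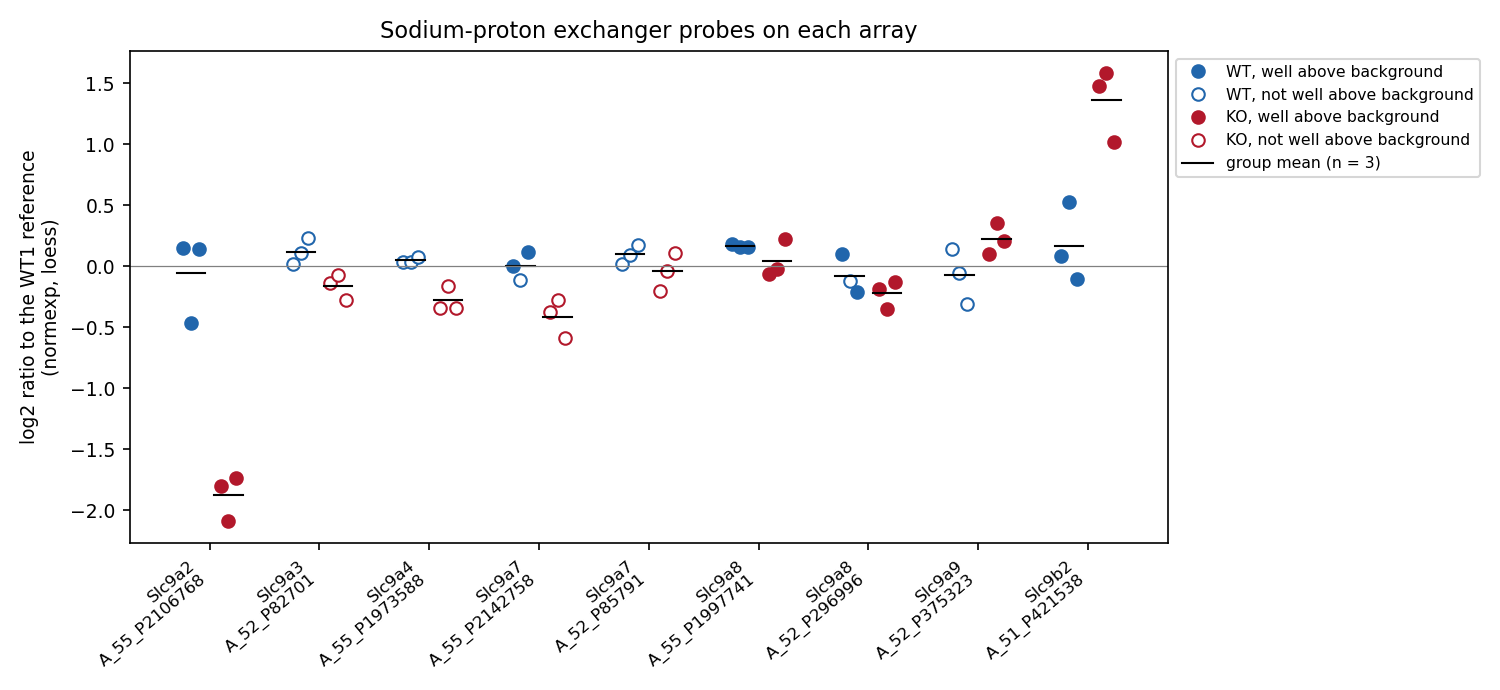
Log2 ratio of Cy5 to the Cy3 WT1 reference (normexp and loess) for each of the 9 exchanger probes on the 6 arrays, WT in blue and KO in red, with open circles where the Cy5 signal was not well above background and bars at group means (n = 3). The KO points of Slc9a2 lie between -2.09 and -1.74, below every WT point, and those of Slc9b2 lie between 1.02 and 1.58, above every WT point.

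Slc9a2 encodes NHE2, an exchanger of the apical surface of epithelial cells that is known in the distal nephron and the gut. Its probe A_55_P2106768 (NM_001033289) gave log2 ratios of 0.15, -0.46 and 0.14 in WT replicates 1 to 3 and -1.80, -2.09 and -1.74 in KO replicates 1 to 3. The lowest WT array, replicate 2, lay above every KO array. The mean was -0.06 ± 0.35 (SD, n = 3) in WT and -1.88 ± 0.19 (SD, n = 3) in KO, a difference of -1.82 ± 0.18 (SE), or a 3.53-fold lower signal in KO. The Agilent scale gave 0.01, -0.63 and 0.02 for WT, and -2.35, -2.85 and -2.44 for KO, a 5.09-fold lower signal. The difference was between -2.02 and -1.71 when any single array was left out, and -2.02 when the KO arrays were set only against the WT replicate 1 array of the same slide row. The principal cell, thick limb and intercalated cell markers fell in the same samples, with median differences of -1.91, -2.41 and -2.46. Endothelial markers fell as well (median -1.06). The part of these cell types in the Slc9a2 difference was not tested.

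The processed signals behind these ratios need to be read within an array, because both processed channels were brighter on the KO arrays. The 75th percentile of processed Cy5 was 250.2 to 273 on WT arrays and 484 to 547 on KO arrays, and that of Cy3, the same RNA throughout, was 247 to 270.1 and 479 to 547. The Slc9a2 probe had Cy5 signals of 376, 224 and 326 in WT and 142, 110.4 and 118 in KO. Its Cy3 signals on the same arrays were 373, 347 and 322, then 724, 796 and 640. Thus on the KO arrays the sample gave less signal than the reference beside it. The channels were nearly equal in WT replicate 3, and in WT replicate 1, where both held the same RNA by design. In WT replicate 2 the sample was also below the reference, at 224 against 347.

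**Figure D2:**
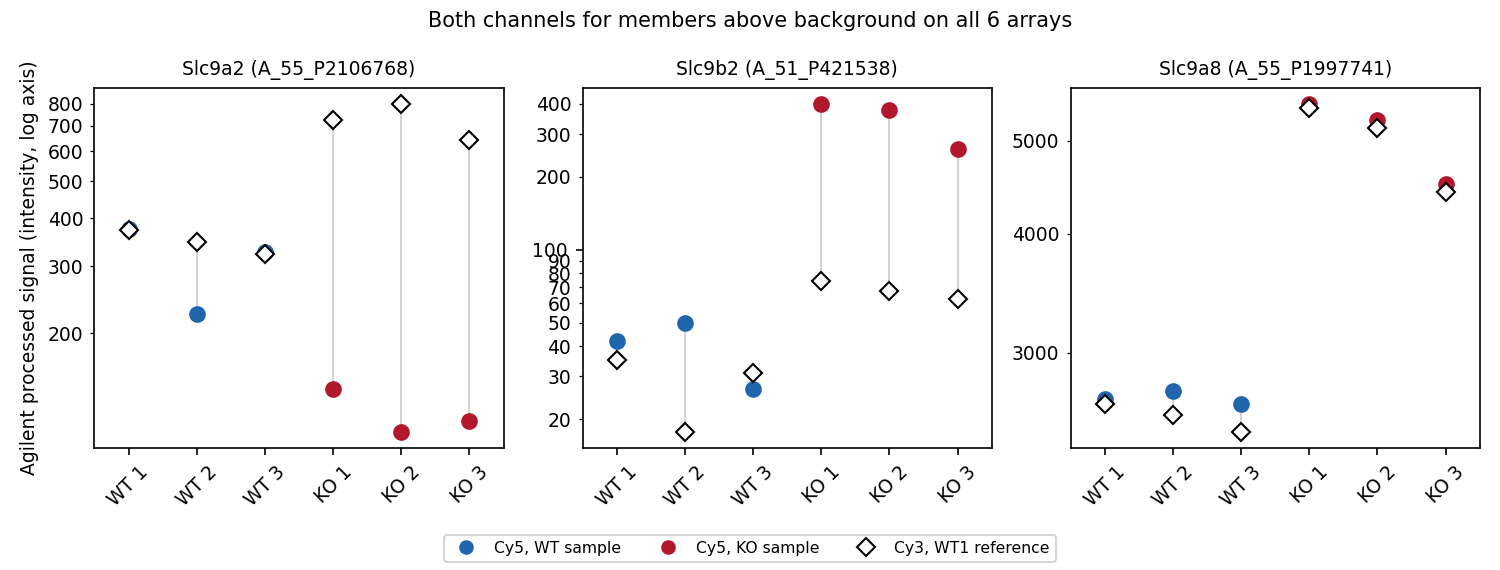
Agilent processed signal (log axis) of the Cy5 sample (filled circles, WT blue, KO red) and the Cy3 WT1 reference (open diamonds) on each of the 6 arrays for Slc9a2, Slc9b2 and the brighter Slc9a8 probe, with a grey line joining the channels of an array. Cy5 lies below Cy3 on the KO arrays for Slc9a2, at 110.4 to 142 against 640 to 796, above it for Slc9b2, at 261 to 398 against 62.6 to 74.5, and close to it for Slc9a8.

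Slc9a3 encodes NHE3, the main apical exchanger through which the proximal tubule takes back sodium and bicarbonate. Its probe A_52_P82701 (NM_001081060) reached a Cy5 signal well above background on 0 of 6 arrays, so it has no fold. Log2 ratios of 0.01, 0.11 and 0.23 were measured for WT, and -0.14, -0.07 and -0.27 for KO, a difference of -0.28 ± 0.10 (SE, n = 3 per group). The groups did not overlap, and the value farthest from the WT1 reference was the -0.27 of KO replicate 3. Its Cy5 signal was 11.7, 10.8 and 15.3 on the WT arrays and 7.35, 5.85 and 4.95 on the KO arrays. The Agilent difference was -2.37, against a reference that was itself well above background on only 2 arrays, those of KO replicates 1 and 3.

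Slc9a4 encodes NHE4, a basolateral exchanger known in the stomach and in the thick ascending limb. Probe A_55_P1973588 (NM_177084) also had 0 of 6 arrays well above background in Cy5 and has no fold. Its log2 ratio was 0.04, 0.03 and 0.08 on the WT arrays and -0.34, -0.16 and -0.34 on the KO arrays, a difference of -0.33 ± 0.09 (SE) without overlap. The Agilent ratios ran from -0.16 to 1.24 in WT and from -2.36 to -0.89 in KO, so the same dim spots differ by -2.41 on that scale. The Cy3 reference was well above background only on the KO replicate 1 array. In the RefSeq annotation Slc9a4 and Slc9a2 are neighbours on chromosome 1 with 0 genes between them. Of this pair only Slc9a2 gave a signal well above background in the samples.

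Slc9a7 encodes NHE7, an exchanger of the trans-Golgi network. Probe A_55_P2142758 (NM_177353) gave log2 ratios of 0.00, -0.11 and 0.12 in WT and -0.38, -0.28 and -0.59 in KO, a difference of -0.42 ± 0.11 (SE) without overlap. It was well above background in WT replicates 1 and 3 and on no KO array, so no fold is given. The mean normalised log2 Cy5 signal was 6.64 in WT, with replicate 2 not well above background, and 6.13 in KO. The second Slc9a7 probe, A_52_P85791, stayed near background on all 6 arrays, with ratios of 0.02, 0.10 and 0.18 in WT and -0.20, -0.04 and 0.11 in KO. Its groups overlapped, so the difference between groups at the first probe was seen with that probe alone. On the Agilent scale the second probe gave exactly 0 in replicates 2 and 3 of both groups. Its Agilent difference of -0.91 rests mainly on the -2.65 of KO replicate 1, beside 0.08 in WT replicate 1.

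Slc9a8 encodes NHE8, which is found in the Golgi and endosomes and at the apical surface of the young proximal tubule. It was measured by a bright probe, A_55_P1997741 (NM_148929), with Cy5 signals of 2687, 2736 and 2652 in WT and 5460, 5256 and 4511 in KO. The Cy3 signals were 2653, 2582 and 2482, then 5407, 5159 and 4422, so the processed channels lay close together on each array. The 75th percentiles of the processed channels were also nearly equal on every array, so this match adds little to the ratio. The log2 ratio was 0.18, 0.16 and 0.16 on the WT arrays and -0.06, -0.03 and 0.22 on the KO arrays. The groups overlapped because KO replicate 3 lay above every WT array. The mean was 0.16 ± 0.01 (SD, n = 3) in WT and 0.04 ± 0.15 (SD, n = 3) in KO, a difference of -0.12 ± 0.10 (SE), and the Agilent difference was -0.04. With each array centred on its median in place of loess the difference was 0.19, where the median of all genes was 0.24. The dimmer probe A_52_P296996 overlapped as well, with a difference of -0.14 ± 0.11 (SE) and with 2 WT arrays and 3 KO arrays well above background.

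Slc9a9 encodes NHE9, an exchanger of recycling endosomes. Probe A_52_P375323 (NM_177909) was well above background on all 3 KO arrays and on no WT array, so it passed the signal filter through the KO arrays alone. Its Cy5 signal was 9.84, 6.66 and 3.21 on the WT arrays and 23.2, 38.3 and 41.5 on the KO arrays, the latter brighter in both channels over all probes. The log2 ratio was 0.14, -0.06 and -0.31 on the WT arrays and 0.10, 0.35 and 0.21 on the KO arrays, so WT replicate 1 lay within the KO range and the groups overlapped. The difference was 0.30 ± 0.13 (SE), and no fold is given, since no WT array was well above background. Against WT replicate 1 alone the difference was 0.08. In Cy3 this probe was well above background on 0 of 6 arrays.

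Slc9b2 encodes NHA2, a sodium-proton exchanger of a separate branch of the family, known in osteoclasts and in the distal nephron. Its probe A_51_P421538 (NM_178877) gave log2 ratios of 0.09, 0.53 and -0.11 in WT and 1.48, 1.58 and 1.02 in KO. Every KO array lay above every WT array. The mean was 0.17 ± 0.32 (SD, n = 3) in WT and 1.36 ± 0.30 (SD, n = 3) in KO, a difference of 1.19 ± 0.19 (SE), or a 2.28-fold higher signal in KO. The highest WT value, that of replicate 2, was on the array where the Cy3 reference of this probe was not well above background.

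The Cy5 signal of Slc9b2 was 42.1, 49.7 and 26.7 on the WT arrays and 398, 378 and 261 on the KO arrays, beside Cy3 signals of 35.1, 17.8 and 30.9, then 74.5, 67.5 and 62.6. The Agilent scale gave 0.26, 1.48 and -0.21 for WT, and 2.42, 2.48 and 2.06 for KO, a 3.51-fold higher signal. Leaving out any single array gave differences of 1.05 to 1.37, and against WT replicate 1 alone the difference was 1.27. The nephron progenitor and stroma markers rose in the same samples, as did 5 of 7 leukocyte markers (1 fell). The part of these cell types in the Slc9b2 difference was not tested. Its neighbour on chromosome 3, Slc9b1, with 0 genes between them in RefSeq, had probes well above background on 1 and on 0 arrays.

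The Cy3 channel measured the same WT1 RNA 6 times and gives a technical spread for each probe that the choice of genes did not use. The SD of log2 processed Cy3 over the 6 arrays was 0.59 for Slc9a2, 0.53 for the brighter Slc9a8 probe and 0.81 for Slc9b2. After subtracting each array's 75th percentile of Cy3, the SD was 0.07, 0.06 and 0.41 in the same order. The same scaled SD was 0.18 for the brighter Slc9a7 probe and 0.84 for the second. It was 0.27 for the dimmer Slc9a8 probe, 0.43 for Slc9a4, 0.48 for Slc9a3 and 0.73 for Slc9a9. The repeat measurements were tightest for the bright probes of Slc9a2 and Slc9a8, and widest for the second Slc9a7 probe and the Slc9a9 probe, whose Cy3 signals were well above background on 1 and on 0 arrays.

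**Figure D3:**
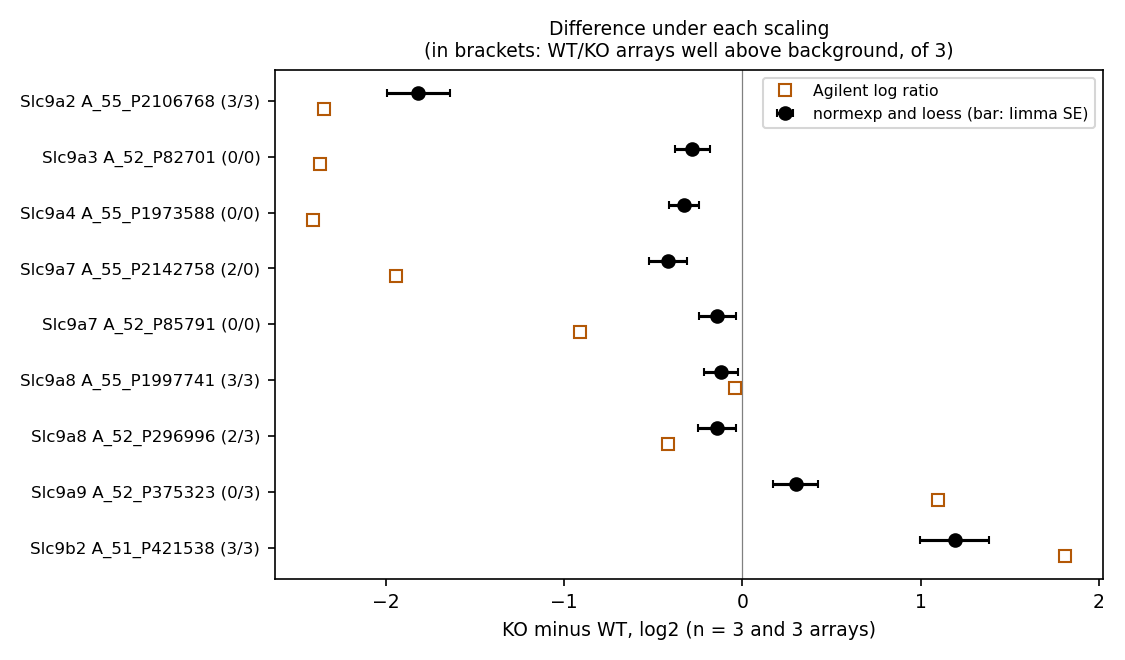
Difference between KO and WT means (log2, n = 3 arrays per group) of each exchanger probe on the normexp and loess scale (filled circles, bars of ± 1 limma SE) and on the Agilent scale (open squares), with the number of WT and KO arrays well above background in brackets. Slc9a3 and Slc9a4, with 0 such arrays, move from -0.28 and -0.33 to -2.37 and -2.41 between scales, while the brighter Slc9a8 probe stays between -0.12 and -0.04.

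The order of the differences depended on the scale for the dim probes. Slc9a2, Slc9a3 and Slc9a4 lay between -2.41 and -2.35 on the Agilent scale, whereas normexp set Slc9a2 apart from the other 2. With an offset of 0 the values were -2.26 for Slc9a2, -0.95 for Slc9a3 and -0.95 for Slc9a4. The sign of the difference was the same in all 13 settings tried for Slc9a2 and Slc9b2, the members with a difference that were well above background on every array, and in 12 of 13 for Slc9a8. Of these settings the series matrix repeats the Agilent ratios and the replicate block cannot move a difference. The range over these settings was -2.35 to -1.68 for Slc9a2 and 1.05 to 2.18 for Slc9b2.

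Of the other family members reported here, 4 were on the array (Slc9a5, Slc9b1, Slc9c1 and Tmco3) and 1 could be tested. Tmco3, a more distant relative, gave log2 ratios of -0.04, -0.20 and -0.05 in WT and -0.27, 0.12 and -0.05 in KO. Its groups overlapped, and the difference of 0.03 ± 0.12 (SE, limma adjusted p = 0.862) was not called. Probes of Slc9a5 and Slc9c1 were well above background on 0 of 6 arrays.

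Exchangers work with small calcium-binding cofactors, scaffold proteins and carrier proteins. Of 15 such genes on the array 15 were tested, 6 fell and 0 rose in KO, where 20.0% of all tested genes were lower, and the other 9 were not called (median difference -0.29, beside -0.02 over all genes). Tesc, which encodes the calcium-binding protein tescalcin, gave log2 ratios of 0.10, -0.09 and 0.44 in WT and -2.31, -2.16 and -1.94 in KO. The difference was -2.28 ± 0.16 (SE, adjusted p = 0.00019), a 4.87-fold lower signal, and it kept its call in all 16 settings tried. Chp1, which encodes a required cofactor of plasma membrane exchangers, gave 0.18, 0.11 and 0.22 in WT and -0.26, -0.44 and -0.40 in KO (difference -0.54 ± 0.10, adjusted p = 0.00421). A second Chp1 probe gave -0.55.

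The scaffold gene Slc9a3r2 (NHERF2, which tethers NHE3) fell by 0.59 on the log2 scale (adjusted p = 0.00562), and its second probe gave -0.37. Ezr, which encodes ezrin, the linker between that scaffold and actin, differed by -0.80 ± 0.16 (SE, adjusted p = 0.00692), with ratios of -0.07, -0.05 and 0.18 in WT and -0.45, -1.04 and -0.86 in KO. The other scaffold, Slc9a3r1 (NHERF1), was not called and differed by -0.14 ± 0.13. The carrier protein genes Scamp1 and Scamp5 differed by -0.48 ± 0.11 (adjusted p = 0.0129) and -0.33 ± 0.11 (adjusted p = 0.0441). Scamp1 was not called without WT replicate 1 or 3 (adjusted p = 0.0519 and 0.0543), with Agilent or series matrix ratios (0.0524 for each) or with Cy5 alone (0.0869). Scamp5 was not called without WT replicate 1, 2 or 3 (0.143, 0.0929 and 0.0774) or without KO replicate 2 or 3 (0.131 and 0.105). The genes nearest to a call among the rest were Scamp2 (-0.29 ± 0.11, adjusted p = 0.08), which was called without KO replicate 1 (0.0176), and Msn, the ezrin relative moesin (-0.27 ± 0.13, adjusted p = 0.127).

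With each array centred on its median in place of loess, or with slide row as a block, Tesc was the only one of these 6 genes that was still called lower. Centring moved the median of all genes to 0.24 and the share of called genes that were higher in KO from 43.4% to 74.4%. The Chp1 and Ezr differences were then -0.22 and -0.46, both below that median. With slide row as a block, which sets KO only against WT replicate 1, the Chp1 difference was -0.55 (adjusted p = 0.0577) and the Ezr difference -0.71 (adjusted p = 0.101).

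Sodium-coupled bicarbonate cotransporters are sodium transporters that also act on the pH of the cell, by carrying bicarbonate. Of 5 on the array 4 were tested, 1 rose and 0 fell (median difference -0.24), where 15.4% of all tested genes were higher in KO. Slc4a7, which encodes the electroneutral cotransporter NBCn1, gave log2 ratios of 0.39, 0.31 and 0.17 in WT and 1.20, 0.83 and 0.72 in KO, a difference of 0.63 ± 0.14 (SE, adjusted p = 0.0108). A second Slc4a7 probe that was also well above background on all 6 arrays gave -0.24 ± 0.27, so the probes disagreed. Without WT replicate 3 the adjusted p of Slc4a7 was 0.0519. Slc4a4, the electrogenic cotransporter of the proximal tubule, differed by -0.69 ± 0.27 (adjusted p = 0.0788) and Slc4a5 by -0.32 ± 0.13 (adjusted p = 0.0935), neither of them called. The Slc4a4 ratios were -1.55, -0.54 and -0.74 in KO, and without KO replicate 1 the difference was -0.38. The Slc4a10 probe was well above background on 0 of 6 arrays.

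**Figure D4:**
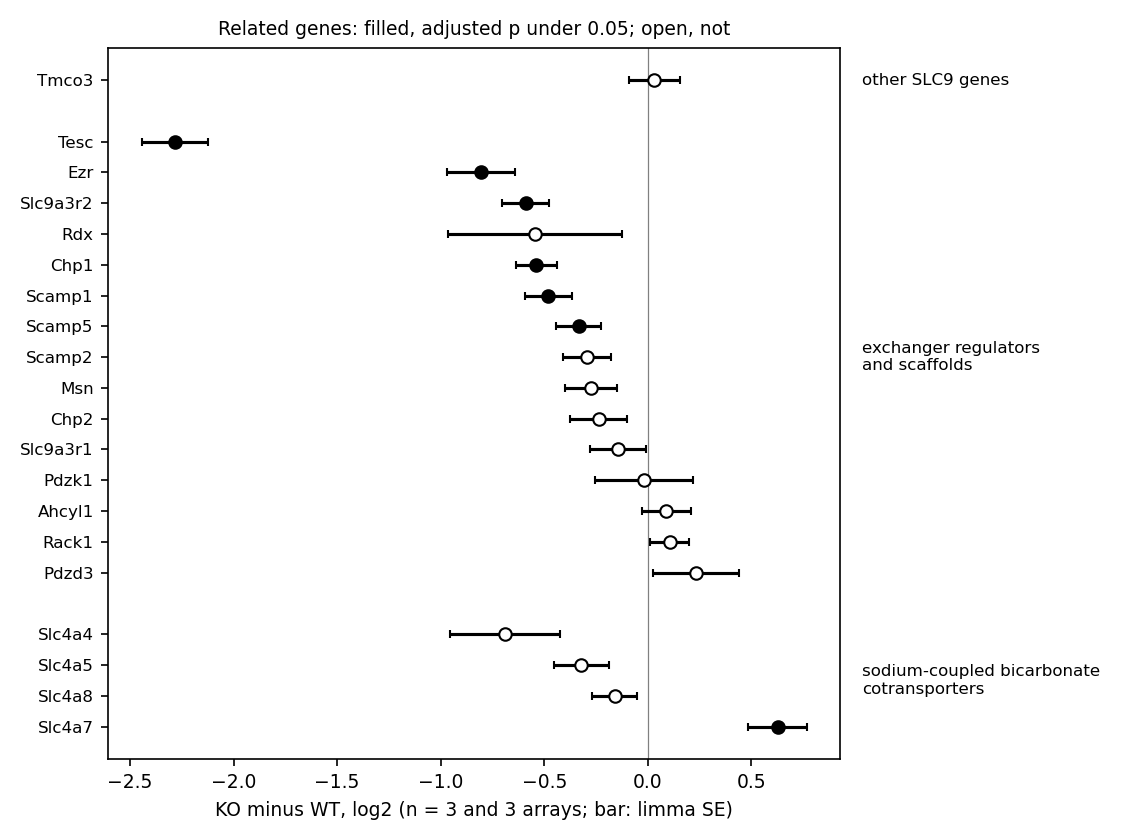
Difference between KO and WT (log2, n = 3 arrays per group, bars of ± 1 limma SE) for the tested genes of 3 related lists, filled where the adjusted p was under 0.05. Tesc lies at -2.28, apart from the other regulators, and Slc4a7 at 0.63 is the only filled point above 0.

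The genes whose profiles lay nearest to each tested exchanger were found by root mean square distance of log2 ratios over the 6 arrays. Nearest to Slc9a2 were Wdr72 (distance 0.0864, difference -1.94) and Gal3st1 (0.0905, -1.77). Nearest to Slc9b2 were Igf2os (0.124, 1.24) and Gdf1 (0.144, 1.26). For Slc9a8 they were Slc50a1 (0.0363, -0.13) and Trim11 (0.0380, -0.09), and for Slc9a9 they were Tra2a (0.0667, 0.29) and Gpr6 (0.0753, 0.27). The neighbours of Slc9a2 and Slc9b2 share the direction of the exchanger by the way they were found, so the distances are a description.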

How the data were processed

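The deposited scanner files hold spot and background intensities of 6 arrays, written by Agilent Feature Extraction 10.7.3.1 per the file headers. The submitters' processing notes name it as 6.1. The authors' processed intensities, their log10 ratios of Cy5 over Cy3 and the flags for signal well above background are in the same files, per the file headers. Log10 ratios of the deposited series matrix lay within 0.00499 of those in the scanner files. Its column medians were 0, its direction is Cy5 over Cy3, and any further centring by the authors is not given here.

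Median intensities were corrected with normexp (offset 50) and loess in limma 3.58.1 (R 4.3.3), with control spots at weight 0 and outlier spots left out. Of 55681 probes 27509 were named by RefSeq accession (GRCm38.p6), 28172 were not, and 117 with a missing value were left out. A gene was tested where a probe was well above background in Cy5 on at least 3 of 6 arrays, and its brightest probe stood for it. KO was compared with WT by lmFit and eBayes (3.94 prior degrees of freedom) with 2-sided p-values adjusted by Benjamini-Hochberg at a threshold of 0.05, and the fit was tested on simulated data. Errors of exchanger probes and of second probes come from a separate fit of the same kind over all probes, without the filter. They are not on the same footing as errors of tested genes. For the main Chp1 probe the error was 0.085 in the fit over all probes and 0.098 in that of tested genes. The mean normalised log2 Cy5 signals of Slc9a7 rest on Cy5 alone, and no dyes were swapped, so they are open to dye bias. Array number limits precision. The exchanger genes and all lists were chosen with earlier results of these data known. Named genes were all exchanger probes, the other family members reported here, called genes and up to 2 not called per related list, and the 2 nearest profiles per tested exchanger. Aqp2 and Ptprc were named as defining markers, and Slc9a3r1 and Rack1 were named after their values were seen. Scaling Cy3 to the 75th percentile was chosen after the data were seen. No genome or probe sequence was used here. Some family members are not reported here.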

Additional observations from a re-analysis of the deposited data

How the results depend on the processing

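The median difference of the 7 exchanger genes, -0.28, was -1.94 with Agilent or series matrix ratios, -1.90 with Cy5 alone, -0.95 with a normexp offset of 0, -0.37 with median centring and -0.18 with slide row as a block, and -0.33 to -0.22 with an array left out. Genes called numbered 5223 (2267 higher, 2956 lower). With slide row as a block they were 2227 (736 and 1491), and with median centring 1033 were lower. Leaving out an array gave 3262 to 5708 calls (1274 to 2368 higher, 1988 to 3340 lower), fewest without WT replicate 3. The 6 regulators that fell became 1 with median centring, where 1 rose (Rack1), 1 with slide row, 5 with Agilent, series matrix or Cy5 values, and 4 to 7 with an array left out. The single cotransporter that rose became 0 with Cy5 alone, where 1 fell (Slc4a5), 0 with the mean of probes or slide row, and 0 to 1 with an array left out. Without a filter 5201 genes were called and with probes above background on all 6 arrays 4886, with every list count the same as the main one. A filter does not alter the exchanger values, so none is given for it.

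The labels number replicates 1 to 3 in both groups. Deviations of same-numbered arrays correlated at 0.13, 0.08 and 0.20, so the numbers were not taken as pairs, although each array correlated best with its own number. The replicate block gave 5120 calls (2234 higher, 2886 lower) and left every list count the same as the main one.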
